A study of Homo sapiens with 6 samples.

Results

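Fibronectin, the collagens and the laminins are proteins of the extracellular matrix, and integrins are cell surface receptors that bind them. Of these families, the array's probe annotation supplied here names 2 genes, FN1 and COL26A1, among 14884 named genes in all. They were chosen by symbol: any integrin alpha or beta chain, any collagen chain, any laminin chain, or FN1, with the probe set of the highest mean kept for each gene. Each of the 2 genes had 1 probe set, FN1 the probe set 16908037 and COL26A1 the probe set 17049717. The RefSeq gene table lists 84 symbols that meet the same rule, of which 27 match its integrin patterns and 12 its laminin pattern. None of the 27 integrin and none of the 12 laminin symbols is named by the annotation used here, and of 44 collagen symbols 1 is, COL26A1. No integrin or laminin level is therefore given, and what follows describes fibronectin and a single collagen chain.

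Transcript levels came from Affymetrix human Gene 2.0 ST arrays, whose probes cover whole transcripts, in RPMI8226, KMS11 and U266, established cell lines grown from human multiple myeloma, a cancer of plasma cells. Each line was transfected by lipid reagent with 100 nM miR-10a mimic, a synthetic copy of that microRNA, or with 100 nM scrambled control, and collected after 48 h. Every combination of line and treatment had a single array, which makes 3 mimic arrays and 3 control arrays. All values are log2 levels, and a difference of 1 is a doubling on the scale of the array.

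Fibronectin is secreted as a dimer and assembled into fibrils on the cell surface, where integrins and syndecans hold it. Plasma cells lodge in bone marrow partly by gripping fibronectin and collagen of the marrow stroma, and adhesion to fibronectin is known to protect myeloma cells from drugs. COL26A1 encodes a collagen chain with an EMI domain and short collagenous stretches, far less studied than the fibrillar collagens. A microRNA acts by pairing its seed, a short stretch near its 5′ end, with messenger RNAs, which are then degraded or translated less.

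The main mature form of miR-10a is shown because the mimic is named for it, though the labels give no sequence of the mimic itself. It is RefSeq's hsa-miR-10a-5p (GRCh38.p14, chr17:48579904-48579926, minus strand, in the HOXB cluster), printed 5′ to 3′ with the seed, bases 2 to 8, in capitals.
hsa-miR-10a-5p: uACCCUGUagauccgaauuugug

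The stretches in front of both genes are shown as reference sequence, which was not read in any of the lines. They are the 250 bases before the RefSeq start of each gene (GRCh38.p14), FN1 at chr2:215436069-215436318 on the minus strand and COL26A1 at chr7:101362625-101362874 on the plus strand, both in the gene's own direction. Capitals mark matches on either strand to 3 motifs, the cAMP response element TGACGTCA, the TATA box core TATAA and the GC box GGGCGG.
FN1: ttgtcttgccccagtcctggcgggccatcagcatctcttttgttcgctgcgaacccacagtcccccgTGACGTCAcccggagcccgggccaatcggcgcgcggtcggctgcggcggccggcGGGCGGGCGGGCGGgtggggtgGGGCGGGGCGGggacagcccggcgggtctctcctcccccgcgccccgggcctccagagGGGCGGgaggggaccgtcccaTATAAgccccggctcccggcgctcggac
COL26A1: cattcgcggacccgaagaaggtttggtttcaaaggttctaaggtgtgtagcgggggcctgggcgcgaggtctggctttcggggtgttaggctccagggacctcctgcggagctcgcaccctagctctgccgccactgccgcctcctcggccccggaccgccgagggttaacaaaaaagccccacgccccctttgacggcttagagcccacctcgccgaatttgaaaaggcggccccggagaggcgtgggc
The FN1 stretch held 1 cAMP response element, 183 to 176 bases before the start, 1 TATA box core, 28 to 24 bases before it, and 6 GC boxes, some of them overlapping. The COL26A1 stretch held 0 matches to each. Of 27305 RefSeq promoters cut to the same length, 1.77% held the cAMP response element, 19.6% the TATA box core and 42.3% the GC box. These matches describe the letters only, no binding was measured, and a link to the levels in the lines was not tested.

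FN1 was very high in RPMI8226 and low in the other lines. It stood at 12.81 log2 units with mimic and 12.84 with control in RPMI8226, at 6.05 with mimic and 5.97 with control in KMS11, and at 4.78 with mimic and 4.69 with control in U266. The 3 lines did not overlap, and their order was RPMI8226, KMS11 and U266 in both treatments. The mimic and control arrays lay 0.02 units apart for RPMI8226, 0.08 for KMS11 and 0.10 for U266. For orientation, the middle value of the mean levels of all named genes was 4.70, so FN1 in U266 lay close to it. Whether a value that low stands above background is not known from the table.

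**Figure D1:**
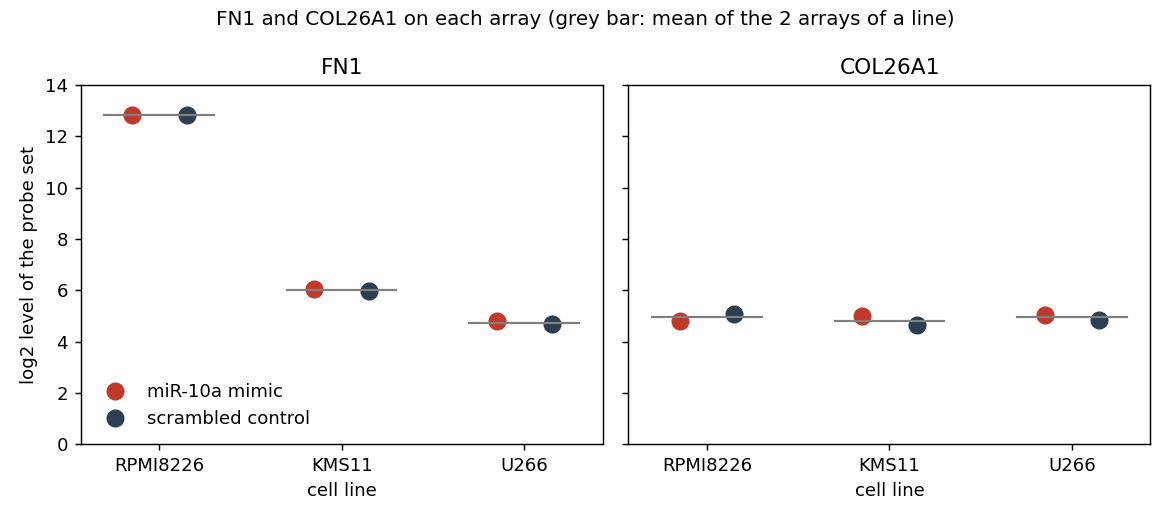
Log2 level of the FN1 and COL26A1 probe sets (vertical axis) on each of the 6 arrays, by cell line (horizontal axis), with mimic left of control and a grey bar at the mean of a line's 2 arrays. FN1 sits at 12.81 and 12.84 in RPMI8226 and between 4.69 and 6.05 in the other lines, while all 6 COL26A1 values lie between 4.65 and 5.08.

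The lines were compared in 1 limma model over all named genes, with treatment as a covariate, so each line mean rests on 2 arrays that differ in treatment. FN1 passed the F test across the lines (adjusted p = 2.17e-06) and COL26A1 did not (adjusted p = 0.752). That is 1 of 2 genes, against 50.8% of all named genes, so passing this test sets no gene apart, and the size of the difference is the fuller description. The line means of FN1 spanned 8.09 log2 units, which ranked 2 among the 14884 genes, whose median span was 0.46. A span of at least 6 units was found for 21 genes, or 0.141%. FN1 is thus among the genes that separate these lines most widely, and COL26A1, at rank 13074 with a span of 0.13, among those that separate them least.

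The wide gap of FN1 lay between RPMI8226 and each of the other lines. In RPMI8226 it averaged 12.82 ± 0.02 (SD, n = 2), against 6.01 ± 0.06 in KMS11 (SD, n = 2). The difference was 6.81 log2 units (95% confidence interval 6.57 to 7.05), or 112-fold (94.9 to 133), with limma's adjusted p = 2.26e-06. Against U266, which averaged 4.74 ± 0.07 (SD, n = 2), RPMI8226 was higher by 8.09 units (7.84 to 8.33), or 272-fold (229.9 to 322), with adjusted p = 1.5e-06. These were the third and the second widest of 14884 absolute differences in their comparisons (ranks 3 and 2). FN1 was counted among the 16.4% of genes higher in RPMI8226 than in KMS11 (20.4% were lower) and the 18.7% higher in RPMI8226 than in U266 (20.3% were lower).

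A smaller step separated the other lines. FN1 was higher in KMS11 than in U266 by 1.28 log2 units (1.03 to 1.52), or 2.42-fold (2.05 to 2.87), with limma's adjusted p = 0.000203. The step was well over the gap between arrays of 1 line, but by size it ranked 1261 among the genes, and 19.9% of all genes passed as higher in KMS11 and 17.2% as lower. Only 4 of 14884 genes stood at least 6 units higher in RPMI8226 than in the higher of the other lines, and FN1 was the second widest of them (rank 2, 6.81 units). Fold values hold on the array's scale, which can compress a difference where the lower level is near background. In RNA from whole cultures, fewer cells with the transcript and less of it per cell cannot be told apart.

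**Figure D2:**
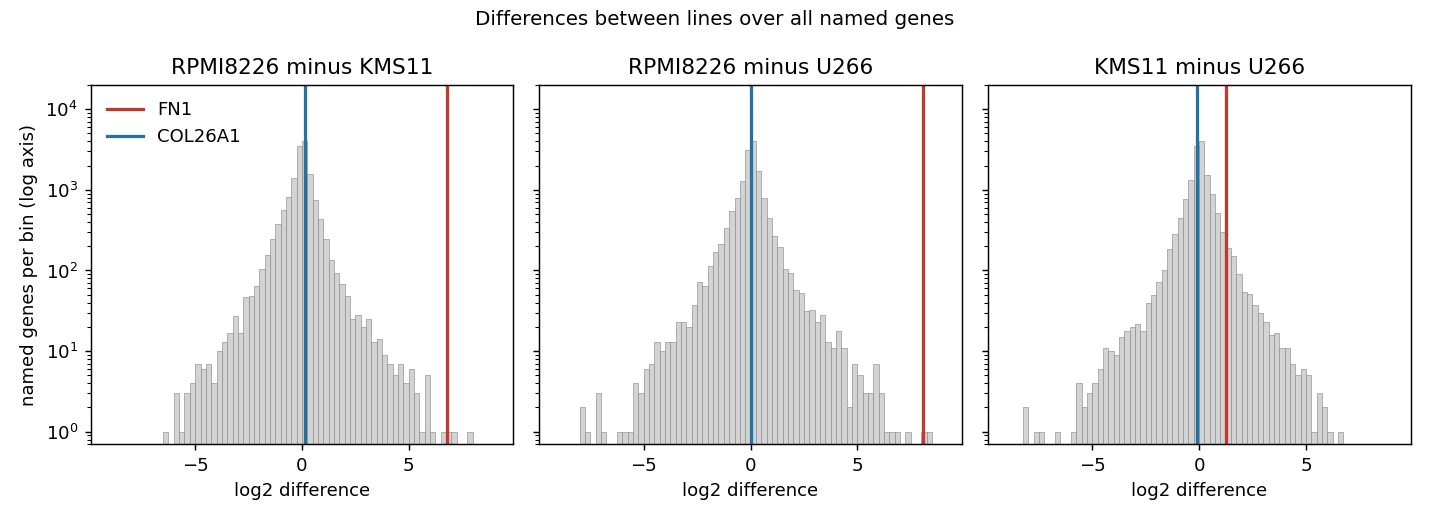
Number of named genes (vertical log axis) by log2 difference between lines (horizontal axis), with FN1 in red and COL26A1 in blue. FN1 lies at 6.81 and 8.09 in the comparisons of RPMI8226 with KMS11 and U266 and at 1.28 between KMS11 and U266, while COL26A1 lies within 0.13 of 0 in all 3.

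COL26A1 was not called as different between any of the lines. It measured 4.82 with mimic and 5.08 with control in RPMI8226, 4.99 with mimic and 4.65 with control in KMS11, and 5.04 with mimic and 4.84 with control in U266. The lines overlapped, and the gaps between the arrays of a line, from 0.20 to 0.34 units, were wider than the gaps between line means. RPMI8226 differed from KMS11 by 0.13 log2 units (95% confidence interval -0.26 to 0.52, limma's adjusted p = 0.601). It differed from U266 by 0.01 (-0.38 to 0.40, adjusted p = 0.971), and KMS11 differed from U266 by -0.12 (-0.51 to 0.27, adjusted p = 0.637). The intervals leave room for differences of up to 1.44-fold between RPMI8226 and KMS11 on this scale, and no order of the lines can be read. COL26A1 averaged 4.90 over the 6 arrays, also close to the middle of the named genes.

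The mimic left both genes without a called change. FN1 averaged 7.88 ± 4.32 with mimic and 7.83 ± 4.38 with control (SD, n = 3 each), an SD set by the lines, so the comparison was made within lines. Mimic minus control gave -0.02 for RPMI8226, 0.08 for KMS11 and 0.10 for U266, and their mean was 0.05 ± 0.07 (SD of 3 lines). The 95% confidence interval was -0.15 to 0.25, or 0.903-fold to 1.19-fold, with limma's adjusted p = 0.98 and the line as a block. A change of FN1 common to the 3 lines and above 1.19-fold or below 0.903-fold lay outside this interval. Of all named genes, 63.2% had a wider mean change than FN1.

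COL26A1 averaged 4.95 ± 0.12 with mimic and 4.86 ± 0.22 with control (SD, n = 3 each). It was lower with mimic in RPMI8226 (-0.27), and higher in KMS11 (0.34) and U266 (0.20), each from 1 pair of arrays and without a test. These averaged 0.09 ± 0.32 (SD of 3 lines). The 95% confidence interval reached from -0.23 to 0.41, with limma's adjusted p = 0.976. Without KMS11 the mean was -0.04, so its sign rests on that line. Neither gene passed in either direction, against 0% of all genes higher and 0% lower, and 767 genes (5.15%) lay at an unadjusted p under 0.05, neither of these 2 among them (unadjusted p = 0.558 for FN1 and 0.517 for COL26A1).

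**Figure D3:**
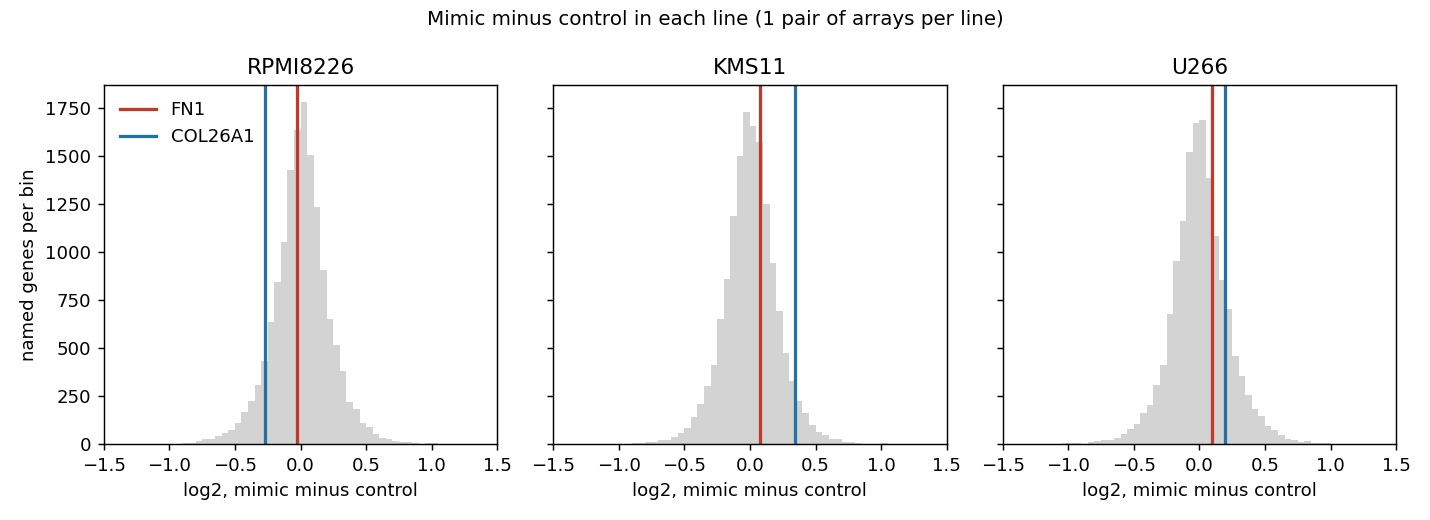
Number of named genes (vertical axis) by log2 change, mimic minus control (horizontal axis), in each line from 1 pair of arrays, with FN1 in red and COL26A1 in blue. FN1 lies at -0.02, 0.08 and 0.10 and COL26A1 at -0.27, 0.34 and 0.20 in RPMI8226, KMS11 and U266, all inside the bulk of the genes.

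For all named genes, the mimic effect of each line was also set against that of the other lines. The single-line changes of COL26A1 ran in opposite directions. For RPMI8226 the difference was -0.54 log2 units (95% confidence interval -1.01 to -0.07), with an unadjusted p of 0.0319 but limma's adjusted p = 0.814. At an unadjusted p under 0.05 this test held 902 genes (6.06%), and 0 genes (0%) passed after adjustment. The same test gave 0.38 for KMS11 and 0.16 for U266 (adjusted p = 1 each). For FN1 it gave -0.11 in RPMI8226 (adjusted p = 0.959), and 0.04 for KMS11 and 0.07 for U266 (adjusted p = 1 each). At an unadjusted p under 0.05 the test of KMS11 held 609 genes (4.09%) and that of U266 911 (6.12%), and in each 0 (0%) passed after adjustment.

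Within a line, 1.5-fold was the size used to read a single pair of arrays, and neither gene reached it. With mimic, 0.941% of genes were at least that much higher and 1.05% lower in RPMI8226, 0.759% and 0.645% in KMS11, and 1.15% and 0.954% in U266. The widest single change of the 2 genes was that of COL26A1 in KMS11, 1.27-fold higher with mimic, which 9.36% of genes exceeded. FN1 in RPMI8226 moved less than 87.9% of genes.

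Stromal and epithelial cells also make fibronectin, and markers of those cells were set beside FN1. Of 10 stromal markers, 5 were named (DCN, LUM, TAGLN, THY1 and S100A4), and 0 of the 5 passed as higher in RPMI8226 than in KMS11 or in U266. Their values ranged from 2.08 to 4.39 in RPMI8226, 1.98 to 4.02 in KMS11 and 2.14 to 4.66 in U266, without the pattern of FN1. S100A4 and THY1 passed the F test across lines (2 of 5, 40%, against 50.8% of all genes), both highest in U266. Of 5 epithelial markers, 4 were named, and 3 of them, EPCAM, KRT18 and KRT8, were higher in RPMI8226 than in both other lines. EPCAM averaged 8.84 for RPMI8226, 7.06 for KMS11 and 4.79 for U266, the same order of lines as FN1, and KRT19 stood at 3.97, 4.00 and 3.89. The part of these markers in the FN1 level was not tested. Of 10 plasma cell markers, 7 were named, and 5 of them passed the F test. IRF4 and XBP1 were high in all 3 lines (10.3 to 10.9 and 9.34 to 9.65 as line means). CD38 was high in RPMI8226 (9.95), against 4.90 in KMS11 and 3.95 in U266, while SLAMF7 stood at 3.56 and 3.37 in RPMI8226 and KMS11 and was high in U266 (7.48). MZB1 averaged 10.0 for RPMI8226, 7.99 for KMS11 and 6.15 for U266, again in the order of FN1, and POU2AF1 stood near the median of all genes in each line (5.05, 5.13 and 4.93). Of the 5 plasma cell markers that passed, 2 were highest in RPMI8226, both in the order of FN1, 1 in KMS11 and 2 in U266. Of 3 named endothelial markers 1 passed, PECAM1, highest in U266 (5.93). Of 3 named B cell markers 1 passed, BLK, highest in RPMI8226 (6.46), and of 4 named T cell and myeloid markers 0 did.

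Fibronectin and collagens are also bound by receptors other than integrins. Of 17 named matrix receptors 11 passed the F test across lines (64.7%, against 50.8% of all genes), and of these 11, 3 were highest in RPMI8226, 4 in KMS11 and 4 in U266. Among genes at or above the median level, 6 of the 7 receptors kept passed (85.7%, against 82.4% of all genes there). That filter rests on the mean over the 6 arrays, so a gene high in 1 line can be kept through that line. GPC6, with a mean of 5.20 against the median of 4.70, was kept through KMS11 alone. The shares at or above the median, here and in the lists below, are therefore no separate support. SDC4, a syndecan that binds the heparin-binding part of fibronectin, averaged 5.01 in RPMI8226, 8.60 in KMS11 and 6.01 in U266 (limma's adjusted p = 1.25e-05), so it was lowest where FN1 was highest. SDC1, the syndecan of plasma cells, stood at 7.23, 5.62 and 9.49 in the same order of lines (adjusted p = 8.9e-06). CD44, a hyaluronan receptor, averaged 3.55 in RPMI8226 and 2.88 in KMS11 and was high in U266 (7.01), where FN1 was lowest (adjusted p = 6.68e-06). GPC6, a glypican, averaged 3.68 in RPMI8226, was high in KMS11 (8.10) and stood at 3.83 in U266 (adjusted p = 3.56e-06). The 3 receptors highest in RPMI8226 all had line means in the order of FN1, and LAIR1 and DDR1 among them were picked after their values were seen. The share of all genes with this order is not given here. LAIR1, an inhibitory collagen receptor of leukocytes, averaged 7.59 for RPMI8226, 6.04 for KMS11 and 3.85 for U266 (adjusted p = 1.84e-05). DDR1, a collagen-binding receptor tyrosine kinase, averaged 4.53, 4.15 and 3.89 (adjusted p = 0.00656), and SDC3, a further syndecan, 4.89, 4.60 and 4.08 (adjusted p = 0.015). Not every step of that order passed. For DDR1 the step from KMS11 to U266 did not (limma's adjusted p = 0.107), nor for SDC3 that from RPMI8226 to KMS11 (0.223).

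Of 27 named integrin adaptors and signalling genes, 18 passed the F test (66.7%). Of these passing genes, 8 were highest in RPMI8226, 8 in KMS11 and 2 in U266, and 7 had line means in the order of FN1. At or above the median level, 18 genes of the list were kept and 15 passed (83.3%, against 82.4% of all genes there). FERMT1, a kindlin that activates integrins, averaged 8.72 in RPMI8226, 7.92 in KMS11 and 3.95 in U266 (limma's adjusted p = 3.41e-06). It had the widest span of the 122 named matrix genes outside the families, 4.77 units, still under the 8.09 of FN1. FERMT3, the kindlin of blood cells, stood at 7.25, 7.64 and 4.64 in the same order (adjusted p = 2.74e-05). TNS3, a tensin, was lowest in RPMI8226 at 6.21, against 8.12 in KMS11 and 7.87 in U266 (adjusted p = 5.24e-05). ZYX, the zyxin gene, was highest in KMS11 at 6.83, against 5.01 in RPMI8226 and 5.08 in U266 (adjusted p = 6.7e-05).

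Among 22 other named integrin ligands, 10 passed (45.5%), and all 4 of those at or above the median level did. Of the 10, 5 were highest in RPMI8226, 2 in KMS11 and 3 in U266, and 1 had the order of FN1. SPP1, encoding osteopontin, had the same line as FN1 at its top, with 5.48 in RPMI8226, 3.25 for KMS11 and 3.13 for U266 (limma's adjusted p = 4.36e-05). ICAM1 and ICAM3, ligands of leukocyte integrins, averaged 10.2 and 8.79 in RPMI8226, 7.84 and 4.38 in KMS11, and 9.04 and 8.15 in U266 (adjusted p = 2.29e-05 and 3.56e-06). JAM2, a junction adhesion gene, stood at 2.49, 4.69 and 2.83 in the same order of lines (adjusted p = 6.69e-05).

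Genes that fold, process and degrade matrix proteins showed a further set of line patterns. Of 15 named collagen-processing genes 10 passed (66.7%), of 15 basement membrane partners 5 (33.3%), and of 26 matrix-degrading enzymes and inhibitors 17 (65.4%). At or above the median level, where 82.4% of all genes passed, 6 of 7, 1 of 1 and 11 of 13 did, and the shares are not read as differences between lists. TIMP1, an inhibitor of matrix metalloproteinases, was highest in RPMI8226 with FN1, at 8.03, against 4.15 in KMS11 and 5.99 in U266 (limma's adjusted p = 1.13e-05). CTSL, a lysosomal protease gene, ran the other way, with 3.80 in RPMI8226, 6.40 for KMS11 and 6.94 for U266 (adjusted p = 9.37e-06). PCOLCE2, an enhancer of procollagen processing, and PXDN, a peroxidase that cross-links collagen IV, averaged 4.95 and 3.17 in RPMI8226 and 3.96 and 3.10 in KMS11 and were highest in U266, at 7.22 and 7.10 (adjusted p = 7.39e-06 and 3.7e-06). ADAM15, a membrane protease gene, had the same order of lines as FN1, with 8.37 in RPMI8226, 7.15 for KMS11 and 5.11 for U266 (adjusted p = 2.92e-05). Of the 17 passing enzymes and inhibitors, 2 had that order, and 6 were highest in RPMI8226, 3 in KMS11 and 8 in U266. Of the 10 passing collagen-processing genes 3 had it, and of the 5 passing basement membrane partners 1. The share of all genes with this order is not given here, so these counts are not read as high or low. MMP16, a membrane-bound metalloproteinase gene, stood at 3.26 in RPMI8226, was highest in KMS11 at 5.57, and stood at 3.05 in U266 (adjusted p = 1.5e-05).

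The remaining genes named by the same rule had narrower or lower patterns. CRTAP, COLGALT1 and PPIB, which modify or fold collagen, had line means of 8.72, 8.46 and 11.6 in RPMI8226, 8.43, 7.72 and 10.4 in KMS11, and 10.2, 8.32 and 11.2 in U266. AGRN, encoding agrin, stood at 5.39, 4.74 and 4.37 in the same order of lines. FRAS1 and FREM2, matrix genes of the basement membrane, averaged 3.23 and 2.78 in RPMI8226, were highest in KMS11 at 5.13 and 4.21, and averaged 3.15 and 2.91 in U266.

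**Figure D4:**
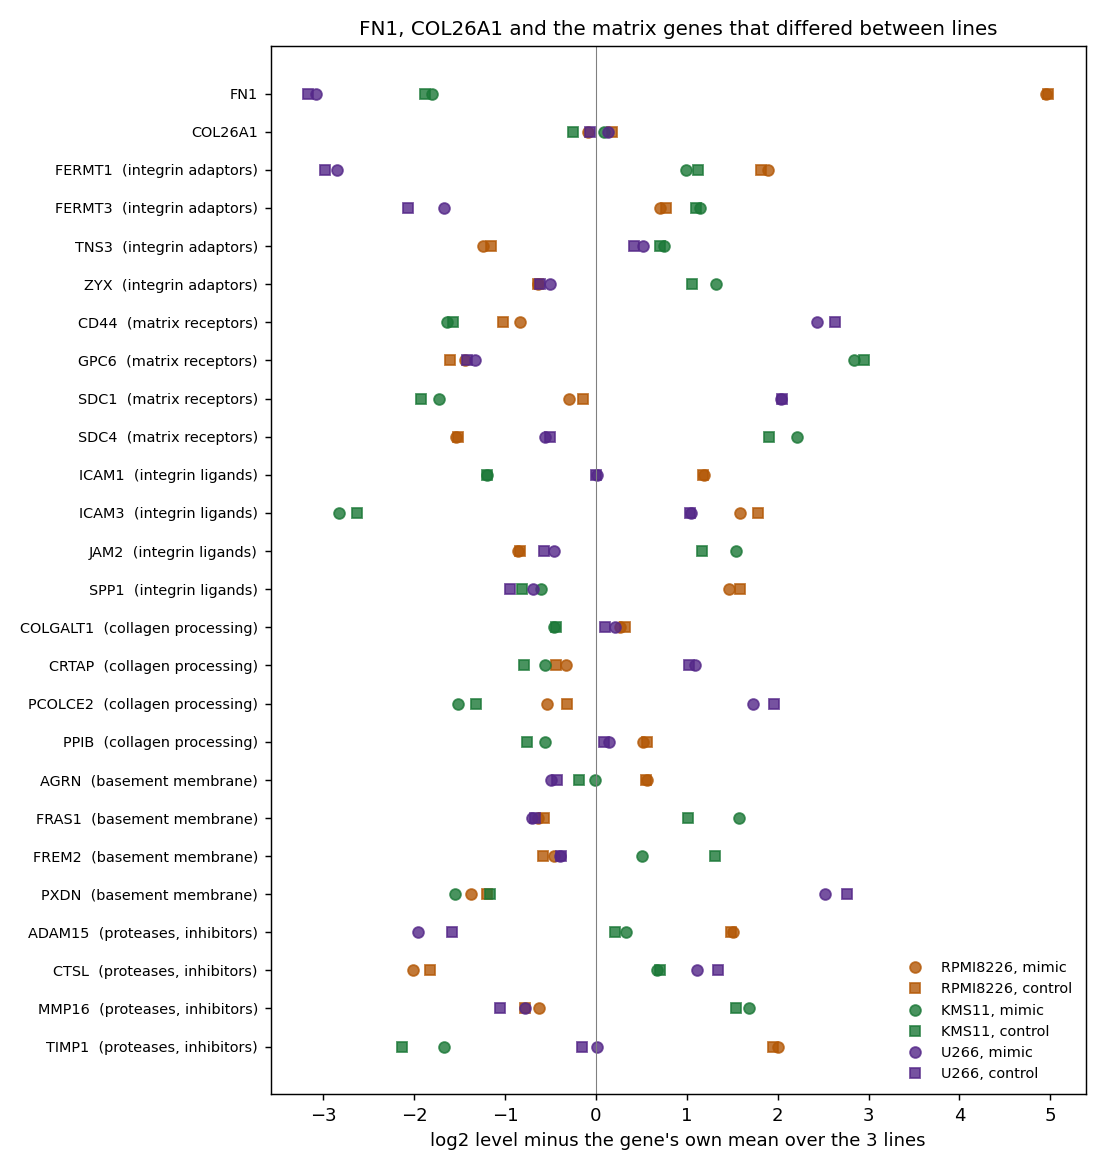
Log2 level of each gene minus that gene's own mean over the 3 lines (horizontal axis), for FN1, COL26A1 and the matrix genes named by rule (rows), with circles for mimic and squares for control arrays and a colour for each line. FN1 spans 8.09 units between line means, against at most 4.77 for the other genes drawn.

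None of the 122 named matrix genes outside the families passed as changed by the mimic either (smallest limma adjusted p = 0.949). The widest mean changes per list were those of CTSK, a collagen-degrading cathepsin gene, at -0.37 ± 0.25, and TIMP1 at 0.23 ± 0.21, of PXDN at -0.27 ± 0.10 and FREM1 at 0.27 ± 0.07, and of LOX, a collagen cross-linking enzyme gene, at 0.27 ± 0.17 (log2, SD of 3 lines). SDC2 gave 0.25 ± 0.40, SDC3 0.23 ± 0.32, THBS1, encoding thrombospondin, -0.24 ± 0.37, FGA 0.17 ± 0.17, CD9, a tetraspanin gene, 0.22 ± 0.16, and PXN, encoding paxillin, 0.19 ± 0.12. PCOLCE2 had the change with the least spread of these, -0.22 with RPMI8226, -0.20 with KMS11 and -0.23 with U266. FREM1, at 2.57 to 2.96, and FGA, at 2.27 to 2.69, lay well under the median of named genes (4.70) on every array. LOX and PXN also lay under it on every array. Whether values that low stand above background is not known.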

How the data were processed

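Per the submitters' processing notes the arrays went through Affymetrix Expression Console 1.3.0, and the authors deposited log2 levels of 53617 probe sets. Background correction, normalization and build are not stated. Detection calls were not used here, and the number of arrays limits precision.

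The annotation gave 1 symbol for 16098 probe sets, several for 0, and left 37519 unnamed here. All 14884 genes matched RefSeq (GRCh38.p14). Without a filter on low values, 1 model with line and mimic as terms was fitted in limma 3.58.1 (R 4.3.3), with 2 residual and 4.12 prior degrees of freedom, two-sided tests, and Benjamini-Hochberg adjustment over all genes at 0.05. A further term, leaving 1 residual degree of freedom, set a line's mimic effect against the others'. The fits were run on simulated data with known changes in a few genes and independent normal noise. For the line test the other genes were set equal between lines there, unlike here, so this checks the code only. Pairing comes from the cell line label, and deviations of paired arrays from treatment means correlated at 0.932 to 0.938 over genes. Separate cultures are not named, so p-values measure only the spread between these arrays.

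The genes, lists and rules were chosen with earlier results of these data known. Of 168 listed matrix genes, 122 were named. Per list, the 4 passing genes with the smallest F test p and the 2 widest mimic changes were named.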

Additional observations from a re-analysis of the deposited data

How the results depend on the processing

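FN1 kept its direction and its call between lines in all 13 alternatives (filters on low values, array centring, quantile normalization, mean of probe sets, variance trend, line alone in the model, and each array left out). Not all of them could move it. The variance trend and the model with line alone left the FN1 differences as they were and changed only the spread used in the test. An array left out moved only the differences that involve its own line. FN1 has 1 probe set, so the mean of probe sets left its values as they were, and the filters changed only the other genes tested. It passed the filter for the upper 25% of genes (mean level 6.45) through RPMI8226 alone, so that filter is no separate support. RPMI8226 minus KMS11 ranged from 6.75 to 6.87 log2 units, RPMI8226 minus U266 from 8.03 to 8.14, and KMS11 minus U266 from 1.24 to 1.32, with limma's adjusted p at most 0.000142, 9.33e-05 and 0.00234. FN1 mimic minus control ranged from 0.03 to 0.09 over 10 alternatives and passed in none (adjusted p from 0.889 to 1). With no replicate block it was 0.05 as well, which was fixed in advance, since each line has 1 mimic and 1 control array. That fit counts the spread between lines as noise, and 0 genes passed in it. COL26A1 passed in none, and its sign turned. RPMI8226 minus U266 was -0.0067 with array medians centred, -0.011 after quantile normalization, and between -0.26 and 0.28 with an array left out. RPMI8226 minus KMS11 lay between -0.14 and 0.40, KMS11 minus U266 between -0.31 and 0.069, and mimic minus control between -0.036 and 0.27 with an array or a line left out. In the upper 25% of genes by expression, where fewer genes were tested and COL26A1 was left out, the F test called 3474 genes (7561 over all), the line contrasts 2933, 2899 and 2852 (5476, 5809 and 5522 over all), and the mimic effect of U266 against the other lines 10. All 9 integrin adaptors, 3 receptors, 3 ligands, 3 collagen-processing genes and 5 degrading enzymes or inhibitors kept there passed (93.4% of all genes did), and no basement membrane partner was kept. Genes high in 1 line can be kept there through that line, so these shares are no separate support. With a variance trend the test of a line's mimic effect against the others called 8 genes for KMS11 and 1 for U266. FN1 and COL26A1 were not among them, and the cause was not tested.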
